A study of Homo sapiens with 12 samples.

Results

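The genes described here encode 10 cytosolic and mitochondrial heat shock proteins and their partners: HSPA1A, HSPA1B, HSPA8, HSPH1, DNAJB1, BAG3, HSP90AA1, HSPB1, HSPD1 and HSPE1. They were taken by name from both gene tables of the series and matched by gene identifier, among 58503 genes shared by a table of 58735 genes for LNCaP and one of 61221 genes for PC3. LNCaP is a human prostate cancer cell line that depends on androgen signalling, and PC3 is one that does not. Both were labelled wild type and were exposed either to the solvent DMSO or to 5 µmol/L erastin, a compound known to inhibit the cystine transporter system xc- and to cause ferroptosis, an iron-dependent cell death. The 12 libraries made 4 groups of 3, LNCaP with DMSO, LNCaP with erastin, PC3 with DMSO and PC3 with erastin. How long the cells were exposed is not given in the sources used here. Nor do the labels say whether replicates were separate cultures, and the p-values therefore reflect only variation among these libraries, which may be technical.

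Heat shock proteins are molecular chaperones that bind unfolded or partly folded proteins and help them to fold, to assemble or to be handed on for degradation. In the cytosol, HSP70 proteins hold short hydrophobic stretches of a client in cycles of ATP hydrolysis. J proteins such as DNAJB1 deliver clients and trigger hydrolysis, and exchange factors such as HSPH1 and BAG3 release the nucleotide. HSP90 finishes the folding of kinases and steroid receptors, the androgen receptor of prostate cells among them, and HSPD1 with its lid HSPE1 forms the folding chamber of the mitochondrial matrix. Many cytosolic members are induced by heat shock factor HSF1, which binds repeats of a short DNA unit, the heat shock element.

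Libraries held 13709558 to 17668554 reads. Levels are FPKM, fragment numbers normalised to the length of the gene and the depth of the library. All 9 LNCaP markers reached 1 FPKM in LNCaP with DMSO, where they summed to 1132 to 1239 FPKM, against 430 to 442 FPKM with erastin. Markers of the libraries labelled PC3 were mixed. All 7 PC3 markers reached 1 FPKM and KLK2 and KLK3 stayed under 0.1 FPKM, but CTNNA1, which is known as homozygously deleted in PC-3 cells, was at 50.6 to 56.7 FPKM with DMSO and 5.92 to 6.61 FPKM with erastin. These values go against the label, hence the wording libraries labelled PC3. Their summed PC3 markers went from 771 to 803 FPKM with DMSO to 119 to 124 FPKM with erastin, and genes above 0 numbered 25679 to 26144 and 30239 to 31311. Of the 4 endothelial markers 2 reached 1 FPKM with DMSO and 1 did with erastin, with CDH5 and VWF under 0.1 FPKM, and the list summed to 27.1 to 32.2 and 4.54 to 4.94 FPKM. The part of these differences in the results below was not tested. In bulk RNA, fewer cells of a type and less RNA per cell cannot be told apart.

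Promoter sequence is shown first for HSPA1A, HSPA1B and DNAJB1, the members that differed most between the lines, because the heat shock element can be read in it directly. HSP90AA1 and HSPH1 also differed between the lines. HSP90AA1 is shown further below, and HSPH1, whose window held no match, is not shown. The sequences are those of RefSeq on GRCh38.p14, written 5′ to 3′ on the strand of the gene, and capitals mark exact matches to the element with 3 alternating units (GAANNTTCNNGAA or TTCNNGAANNTTC) or with 2 units (GAANNTTC or TTCNNGAA). The 2-unit form lies within the 3-unit form, and both written forms of each were searched, which covers both strands. Positions count back from the RefSeq transcript start, the base before it being -1. HSPA1A is shown at chr6:31815293-31815463 and HSPA1B at chr6:31827488-31827658, both on the plus strand and both 171 bases. DNAJB1 is shown at chr19:14518421-14518647 on the minus strand.
HSPA1A: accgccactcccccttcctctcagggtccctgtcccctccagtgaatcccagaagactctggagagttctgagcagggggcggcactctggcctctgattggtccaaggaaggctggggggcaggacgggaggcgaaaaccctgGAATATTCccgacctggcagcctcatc
HSPA1B: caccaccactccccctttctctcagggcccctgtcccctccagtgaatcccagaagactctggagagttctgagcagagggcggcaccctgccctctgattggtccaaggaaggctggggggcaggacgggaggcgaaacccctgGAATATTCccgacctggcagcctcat
DNAJB1: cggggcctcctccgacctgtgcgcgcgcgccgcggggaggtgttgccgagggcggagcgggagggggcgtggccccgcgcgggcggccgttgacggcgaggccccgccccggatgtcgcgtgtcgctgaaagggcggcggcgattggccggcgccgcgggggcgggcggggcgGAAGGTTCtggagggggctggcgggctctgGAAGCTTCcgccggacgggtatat

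Matches with 3 units were found upstream of HSP90AA1, HSPA8 and HSPD1. The stretches around them are shown because the 3 genes did not respond alike. HSP90AA1 is shown at chr14:102087105-102087134, HSPA8 at chr11:123062336-123062386 and chr11:123062167-123062196, and HSPD1 at chr2:197500061-197500090, all on the minus strand.
HSP90AA1: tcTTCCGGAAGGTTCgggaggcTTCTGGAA
HSPA8, upstream match: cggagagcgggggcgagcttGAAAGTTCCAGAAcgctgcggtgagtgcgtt
HSPA8, match near the start: gccccTTCTGGAAGGTTCtaagatagggta
HSPD1: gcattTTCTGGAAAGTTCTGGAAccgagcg

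All 10 members had a promoter entry, with 14 transcript starts in all. Of the 14 windows of 250 bases before a start, 3 held a 3-unit match and 7 held a 2-unit match, in 3 and 7 genes. In HSPA8 the 3-unit matches began at -230 and -55, in HSP90AA1 at -88. In HSPD1 overlapping matches began at -245 and -240 and made a run of 4 units. HSPA1A had a 2-unit match at -106 and HSPA1B at -105, HSPB1 at -182, and DNAJB1 at -77 and -47. No match lay in the windows of HSPH1, HSPE1 and BAG3. Among 35116 promoter windows of the same length in the genome, 0.441% held the 3-unit form and 11.6% the 2-unit form. A match describes the letters in the window, and the study did not measure binding there.

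In libraries labelled PC3, 5 of the 10 heat shock genes rose with erastin and 2 fell, while in LNCaP 3 rose and 1 fell. The rise was largest for the inducible HSP70 genes HSPA1A and HSPA1B, whose mean levels were 9.80 and 7.38 times those with DMSO in libraries labelled PC3. Both mitochondrial chaperonin genes had lower levels with erastin in both lines, in groups that did not overlap. Calls are from limma on log2(FPKM + 1) with Benjamini-Hochberg adjustment over all genes tested and a threshold of 0.05.

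The member counts are read against the whole tables. In LNCaP, 13.8% of 13683 genes tested were called higher and 17.7% lower, and 22.2% and 24.3% had erastin groups wholly above or wholly below DMSO. Of the 10 members, 5 lay wholly above, 2 wholly below and 3 overlapped. Of 15371 genes tested in libraries labelled PC3, 34.0% were called higher and 32.4% lower, and 36.7% and 35.2% had separate groups in the upper and lower direction. There 6 members lay wholly above, 3 wholly below and 1 overlapped. The median log2 fold change of the members was 0.40 in LNCaP against -0.02 over all genes, and 0.80 against 0.00 in libraries labelled PC3. All 10 members passed the filter on low values in both tables.

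The LNCaP count depended on the model. Same-numbered LNCaP libraries met a rule for pairing by the correlation of their deviations, but the rule did not tell replicates 1 and 2 apart. With the replicate block 7 members were called, 5 higher and 2 lower. The added calls were HSPH1 (limma with replicate block, adjusted p = 0.0206), HSP90AA1 (0.0375) and HSPE1 (0.00354). Over all genes the block called 6893 of 13683, 3236 higher and 3657 lower. Leaving out a single library gave 1 to 5 calls, and 1 call was left without DMSO replicate 2, without erastin replicate 1 or without erastin replicate 2. DMSO replicate 3 had the highest summed FPKM of the LNCaP table, 399734 against 288058 and 310861 in the other DMSO libraries. In libraries labelled PC3, DMSO replicate 1 lay nearer to the erastin libraries than the other DMSO libraries did for HSPB1, HSP90AA1, HSPH1 and HSPE1, and farther from them for the other 6 members. Without it 9 members were called, 6 higher and 3 lower. The same fit called 11372 of all 14273 genes tested, 6137 higher and 5235 lower.

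**Figure D1:**
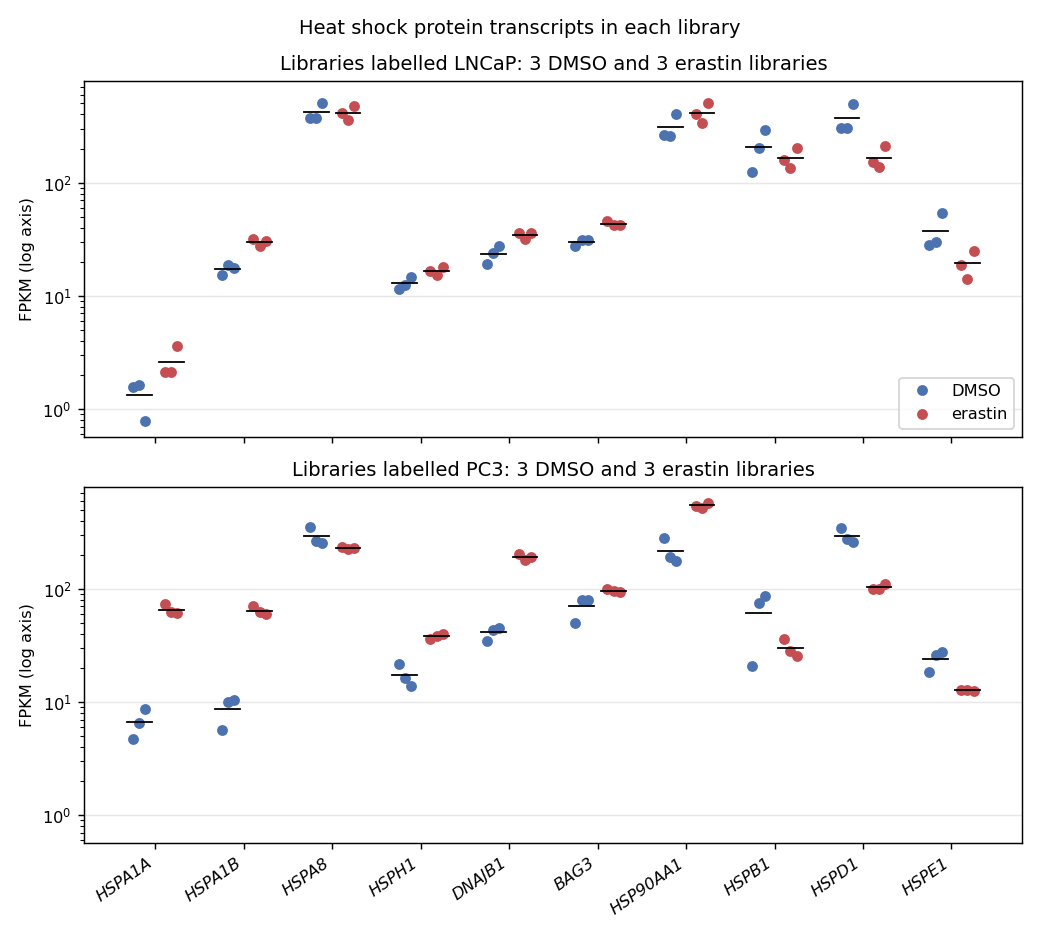
FPKM of the 10 heat shock genes in each library on a log axis, LNCaP above and the libraries labelled PC3 below. Each point is 1 library, blue for DMSO and red for erastin, and the black line is the mean of 3. HSPA1A, HSPA1B, DNAJB1 and HSP90AA1 sit wholly higher with erastin in the lower panel, and HSPD1 and HSPE1 wholly lower in both panels.

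HSPA1A and HSPA1B encode the stress-inducible cytosolic HSP70 and lie next to each other in the major histocompatibility region (hg38 chr6:31815464-31817946 and chr6:31827735-31830255, plus strand). Their coding sequences of 1926 bases differ at 4 bases, and the 641 residues they encode are identical. Of the 50-base words of the HSPA1A transcript, 72.6% also occur in HSPA1B. The handling of reads that match both genes is not stated in the sources used here, and the split between the 2 genes is uncertain. The promoter windows were 94.4% identical over 249 aligned bases.

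HSPA1A, in libraries labelled PC3, was at 4.74, 6.51 and 8.75 FPKM with DMSO and at 73.1, 62.4 and 60.5 FPKM with erastin. All erastin libraries were far above all DMSO libraries. The log2 fold change was 3.14 ± 0.21 (SE, n = 3 per group; limma, adjusted p = 3.54e-05). HSPA1B was at 5.66, 9.90 and 10.4 FPKM with DMSO and at 69.9, 62.8 and 59.3 FPKM with erastin, again with no overlap, a log2 fold change of 2.79 ± 0.22 (limma, adjusted p = 6.88e-05).

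In LNCaP, HSPA1B was the more abundant gene of the pair and rose with erastin. It was at 15.5, 18.7 and 17.8 FPKM with DMSO and at 31.5, 27.3 and 30.6 FPKM with erastin. The groups did not overlap, and the log2 fold change was 0.75 ± 0.13 (limma, adjusted p = 0.00557). HSPA1B was called in LNCaP without any 1 of the 6 libraries, with adjusted p of 0.00982 to 0.0405.

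HSPA1A was the least abundant member in LNCaP, with only 30 to 159 reads per library. It was at 1.56, 1.65 and 0.791 FPKM with DMSO and at 2.13, 2.11 and 3.62 FPKM with erastin. The erastin libraries were all higher, but the log2 fold change of 0.63 ± 0.22 did not pass the test (limma, adjusted p = 0.0744). With a pseudocount of 0.5 or 0.1 in place of 1 the log2 fold change was 0.77 and 0.94, again not called (limma, adjusted p = 0.0758 and 0.0797). Without both replicate 3 libraries it was 0.26 (limma, adjusted p = 0.173), and on recovered reads with limma voom it was 1.16 (adjusted p = 0.0494).

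HSPA1A stood at 0.0778 ± 0.0296 of the HSPA1B level in LNCaP with DMSO and at 0.0876 ± 0.0269 with erastin (SD, n = 3), and these groups overlapped. In libraries labelled PC3 the ratio was 0.777 ± 0.104 with DMSO and 1.02 ± 0.0255 with erastin, in groups that did not overlap. Each line has its own table with its own gene lengths, so levels are set side by side and not tested between lines.

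HSPA8 encodes the constitutive cytosolic HSP70 (hg38 chr11:123057489-123063230, minus strand), which folds new proteins in unstressed cells, and was among the most abundant members in every group. In the LNCaP libraries it was at 372, 374 and 504 FPKM with DMSO and at 412, 357 and 473 FPKM with erastin. The groups overlapped throughout, and the log2 fold change was -0.00 ± 0.22 with a 95% interval of -0.52 to 0.51 (limma, adjusted p = 0.994). Among libraries labelled PC3 it was at 354, 265 and 253 FPKM with DMSO and at 234, 226 and 229 FPKM with erastin. All erastin libraries were lower, yet the log2 fold change of -0.32 ± 0.15 was not called (limma, adjusted p = 0.104). Under quantile normalization that value was 0.11, the opposite sign. HSPA8, whose window held the 3-unit element at 2 places, was called in neither line.

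Inducible HSP70 transcripts were higher relative to HSPA8 in all erastin libraries of both lines. Within each library, HSPA1A and HSPA1B together stood at 0.0457 ± 0.00878 of the HSPA8 level in LNCaP with DMSO and at 0.0788 ± 0.00564 with erastin. In libraries labelled PC3 the ratio was 0.0558 ± 0.0239 with DMSO and 0.563 ± 0.0452 with erastin. Neither pair of groups overlapped, and a ratio within a library does not depend on the scaling between libraries.

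**Figure D2:**
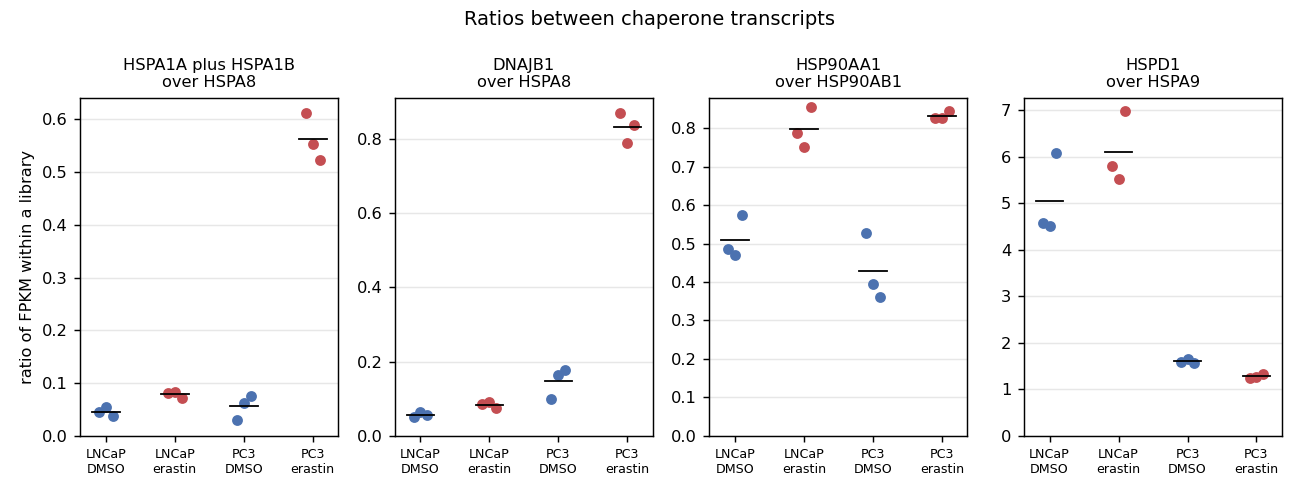
Ratios of FPKM within each library for 4 pairs of chaperone genes, each on an axis that starts at 0. Each point is 1 library, blue for DMSO and red for erastin, and the black line is the mean of 3. The inducible HSP70 genes over HSPA8 averaged 0.563 in libraries labelled PC3 with erastin against 0.0558 with DMSO.

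DNAJB1 encodes HSP40, the main stress-inducible J protein partner of HSP70 (hg38 chr19:14514770-14529770, minus strand), and was called higher in both lines. Libraries labelled PC3 had it at 34.8, 43.6 and 45.0 FPKM with DMSO and at 203.5, 178.5 and 192 FPKM with erastin. The groups were widely separate, with a log2 fold change of 2.20 ± 0.14 (limma, adjusted p = 3.01e-05). LNCaP libraries had it at 19.2, 23.8 and 27.7 FPKM with DMSO and at 35.6, 32.04 and 36.0 FPKM with erastin. These groups did not overlap either, at a log2 fold change of 0.54 ± 0.16 (limma, adjusted p = 0.0393). That LNCaP call ended without any 1 library other than DMSO replicate 3, with adjusted p of 0.0707 to 0.145, and with no filter on low values (0.0730). DNAJB1 overlaps TECR on the opposite strand over 12686 bases, and the sources used here do not give the strand setting of the counting. TECR averaged 17.2 FPKM with DMSO and 24.6 FPKM with erastin in libraries labelled PC3.

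HSPH1 encodes HSP105, an HSP110 protein that acts as an exchange factor for HSP70 (hg38 chr13:31134974-31162388, minus strand). Among libraries labelled PC3 it was at 21.8, 16.3 and 13.9 FPKM with DMSO and at 36.4, 37.9 and 40.2 FPKM with erastin. All erastin libraries were higher, and the log2 fold change was 1.12 ± 0.17 (limma, adjusted p = 0.00119). In the LNCaP libraries it was at 11.5, 12.5 and 14.6 FPKM with DMSO and at 16.7, 15.3 and 18.2 FPKM with erastin. The groups were separate but close, and the log2 fold change of 0.35 ± 0.13 was not called (limma, adjusted p = 0.0817). It was called with the replicate block, with quantile normalization, with protein-coding scaling and with limma voom.

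BAG3 encodes an exchange factor and scaffold that routes HSP70 clients to autophagy together with small heat shock proteins (hg38 chr10:119651370-119677819, plus strand). It was at higher levels with erastin in both lines. LNCaP libraries had it at 27.5, 31.3 and 30.9 FPKM with DMSO and at 45.4, 42.4 and 42.0 FPKM with erastin. The groups did not overlap, with a log2 fold change of 0.52 ± 0.12 (limma, adjusted p = 0.0175). That call ended without DMSO replicate 2, erastin replicate 1 or erastin replicate 2, with adjusted p of 0.0537, 0.107 and 0.0701.

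BAG3, in libraries labelled PC3, was at 50.2, 79.5 and 79.6 FPKM with DMSO and at 99.01, 96.2 and 93.8 FPKM with erastin. DMSO replicate 1 was well below the other DMSO libraries, and all erastin libraries were above all of them. The log2 fold change was 0.49 ± 0.19 (limma, adjusted p = 0.0595). Without DMSO replicate 1 it was 0.27 and was called (limma, adjusted p = 0.00808), and without DMSO replicate 3 it was 0.60 and was called (0.0440). Quantile normalization, protein-coding scaling and limma voom also called it, at 0.64, 0.71 and 0.61.

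HSP90AA1 encodes the inducible cytosolic HSP90 (hg38 chr14:102080738-102139699, minus strand) and had the highest mean of the members in both erastin groups, in LNCaP with a range that overlapped that of HSPA8. Libraries labelled PC3 had it at 281.5, 190.4 and 176 FPKM with DMSO and at 543, 519.9 and 568 FPKM with erastin. The groups were clearly separate, with a log2 fold change of 1.36 ± 0.19 (limma, adjusted p = 0.000803). LNCaP libraries had it at 263, 256 and 405 FPKM with DMSO and at 401, 339 and 506 FPKM with erastin. DMSO replicate 3 was high and lay within the erastin range. The log2 fold change of 0.44 ± 0.26 was not called (limma, adjusted p = 0.239). It was called with the replicate block, and also at 0.85 with quantile normalization, 0.60 with protein-coding scaling, 0.57 with limma voom and 0.51 without both replicate 3 libraries (limma, adjusted p = 0.000985, 0.0146, 0.0359 and 0.0446).

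The constitutive partner HSP90AB1 was more abundant than HSP90AA1 in every group. In LNCaP its mean was 596 ± 93.7 FPKM with DMSO and 518 ± 70.7 FPKM with erastin (limma, adjusted p = 0.514). Among libraries labelled PC3 it rose from 501 ± 27.9 to 652 ± 21.3 FPKM, with a log2 fold change of 0.38 ± 0.11 (limma, adjusted p = 0.0206). The HSP90AA1 level relative to HSP90AB1 was 0.510 ± 0.0559 with DMSO and 0.798 ± 0.0524 with erastin in LNCaP. In libraries labelled PC3 it was 0.428 ± 0.0884 and 0.833 ± 0.0110. The ratio was higher in all erastin libraries of each line, LNCaP included, where DMSO replicate 3 had 0.574 and the lowest erastin library 0.751.

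HSPB1 encodes HSP27, a small heat shock protein that holds unfolded clients without ATP (hg38 chr7:76302544-76304295, plus strand), and varied most among replicates. In the LNCaP libraries it was at 125, 201 and 290 FPKM with DMSO and at 158, 135 and 203 FPKM with erastin, in groups that overlapped (limma, adjusted p = 0.605). Among libraries labelled PC3 it was at 20.7, 75.4 and 86.5 FPKM with DMSO and at 35.7, 28.4 and 25.5 FPKM with erastin. DMSO replicate 1 was the lowest of these 6 libraries, and the other DMSO libraries were the highest. The log2 fold change of -0.78 ± 0.51 was not called (limma, adjusted p = 0.215), and without DMSO replicate 1 it was -1.42 and was called (limma, adjusted p = 0.00011).

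HSPD1 and HSPE1 encode HSP60 and HSP10, the mitochondrial chaperonin and its lid, and are transcribed head to head on chromosome 2 (hg38 chr2:197486581-197516737, minus strand, and chr2:197499994-197503457, plus strand). The RefSeq start of HSPE1 lies 105 bases from one start of HSPD1 and 539 bases from another, and the HSPD1 element shown above lies between these HSPD1 starts. The genes overlap on opposite strands over 3464 bases in the LNCaP annotation, where assignment of reads is uncertain.

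HSPD1, in libraries labelled PC3, was at 347, 274 and 260 FPKM with DMSO and at 99.8, 99.4 and 111 FPKM with erastin. All erastin libraries were far lower, with a log2 fold change of -1.49 ± 0.14 (limma, adjusted p = 0.000154). LNCaP libraries had it at 304, 304 and 498 FPKM with DMSO and at 153, 136 and 211 FPKM with erastin. These groups were separate as well, with a log2 fold change of -1.13 ± 0.27 (limma, adjusted p = 0.0216). The LNCaP call ended without DMSO replicate 2, erastin replicate 1 or erastin replicate 2, with adjusted p of 0.0527, 0.0919 and 0.0823, and with no filter on low values (0.0709).

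HSPE1 had lower levels with erastin in both lines. Libraries labelled PC3 had it at 18.3, 25.8 and 27.7 FPKM with DMSO and at 12.9, 12.7 and 12.6 FPKM with erastin. The groups did not overlap, and the log2 fold change was -0.84 ± 0.17 (limma, adjusted p = 0.00379). In the LNCaP libraries it was at 28.0, 30.1 and 54.2 FPKM with DMSO and at 18.8, 14.1 and 25.1 FPKM with erastin. These groups were separate too, with a log2 fold change of -0.89 ± 0.30 that was not called (limma, adjusted p = 0.0645). It was called with the replicate block, with quantile normalization, with protein-coding scaling and with limma voom.

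Processed copies add uncertainty to HSPE1. Its 26 annotated pseudogene copies summed to at most 28.1% of the gene's own FPKM in an LNCaP library and 36.7% in a library labelled PC3, HSPE1P2 being the highest. For HSPD1 the 17 copies came to at most 3.47% and 4.30%, with HSPD1P1 the highest. The 17 copies of HSPA8 and the 4 of HSP90AA1 came to at most 1.13% and 1.49%.

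**Figure D3:**
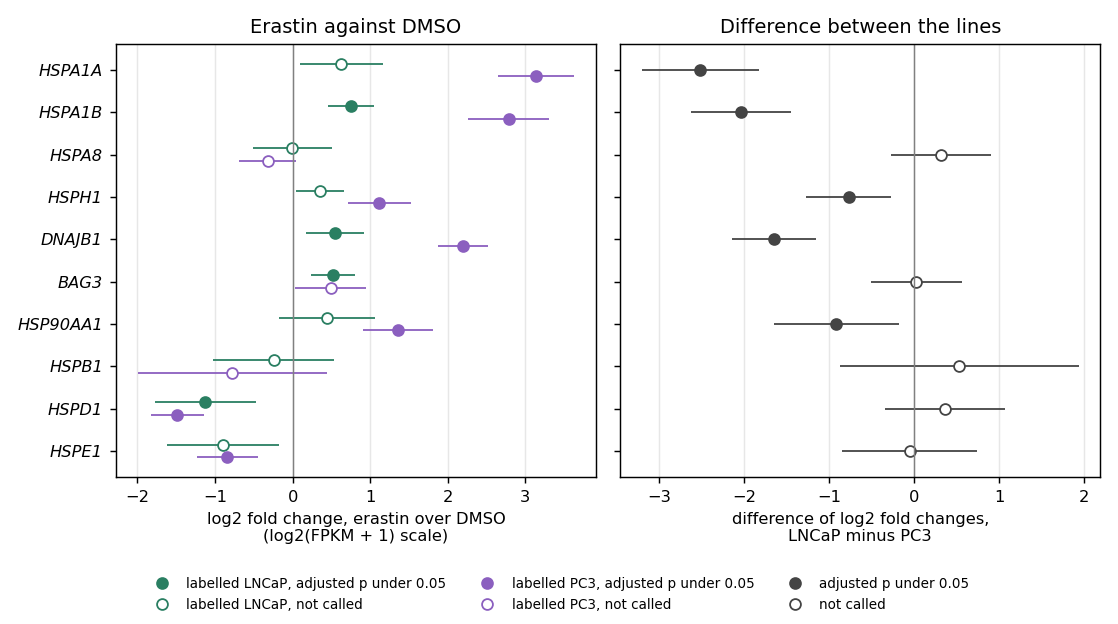
Left, log2 fold change of erastin over DMSO for each heat shock gene with its 95% interval, green for LNCaP and purple for the libraries labelled PC3. Right, the difference of these fold changes, LNCaP minus PC3, with its 95% interval. Filled points passed the adjusted threshold of 0.05. HSPA1A, HSPA1B, DNAJB1, HSPH1 and HSP90AA1 lie left of 0 on the right.

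The responses of 5 members differed between the lines, all in the direction of a smaller rise in LNCaP. Over all 11823 genes tested for the difference, 23.0% were called lower in LNCaP. HSPA1A differed by -2.51 ± 0.32 on the log2 scale, LNCaP minus PC3 (limma interaction, adjusted p = 6.23e-05). HSPA1B differed by -2.03 ± 0.27 (limma interaction, adjusted p = 9.06e-05) and DNAJB1 by -1.65 ± 0.23 (limma interaction, adjusted p = 0.000118). These are the inducible HSP70 genes and their J protein partner.

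HSPH1 differed by -0.77 ± 0.23 (limma interaction, adjusted p = 0.0173) and HSP90AA1 by -0.91 ± 0.34 (limma interaction, adjusted p = 0.0436). The HSP90AA1 difference was not called without LNCaP DMSO replicate 3, LNCaP erastin replicate 1 or 2, DMSO replicate 2 or 3 labelled PC3, or any 1 erastin library labelled PC3. Its adjusted p was then 0.0727 to 0.102, and it was 0.0786 with no filter on low values.

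For the other 5 members no difference was called, and the intervals show what the data leave possible. The BAG3 difference was 0.03 with a 95% interval of -0.51 to 0.56, and the HSPE1 difference was -0.05 with an interval of -0.85 to 0.75. HSPD1 had a difference of 0.36 with an interval of -0.34 to 1.07, and HSPA8 one of 0.32 with an interval of -0.27 to 0.91. HSPB1 had the widest interval, -0.87 to 1.94, around 0.53. Without DMSO replicate 1 labelled PC3 the HSPB1 difference was 1.17 and was called (limma interaction, adjusted p = 0.0337).

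The order of the members also differed between groups. With DMSO, HSPA8, HSPD1 and HSP90AA1 were the 3 most abundant in both lines, and neighbours in that order overlapped in their ranges. With erastin in libraries labelled PC3, HSP90AA1 led with a mean of 544 FPKM, HSPA8 followed with 230 FPKM and DNAJB1 came next with 191 FPKM, with no overlap between these neighbours. HSPA1A and HSPA1B overlapped each other there at 65.3 and 64.0 FPKM. Summed over the 10 members, heat shock transcripts made 0.400% to 0.461% of all FPKM in the 6 LNCaP libraries. The sum was 0.297% to 0.350% with DMSO and 0.463% to 0.493% with erastin in libraries labelled PC3, in groups that did not overlap.

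Across the 12 libraries, centred on the mean of each line, HSPA1A, HSPA1B, DNAJB1, HSPH1 and HSP90AA1 varied together. Their r with one another was 0.83 to 0.99, that of BAG3 with them 0.54 to 0.80, and that of HSPB1 with them -0.58 to -0.31. Pearson's r was 0.99 between HSPA1B and DNAJB1, 0.98 between HSPH1 and HSP90AA1, and 0.89 between HSPD1 and HSPE1, whereas it was -0.87 between HSPA1B and HSPD1. These r describe libraries that share the treatment contrast, depth and gene overlaps. Among 5836 protein-coding candidates outside the members, the profile most like HSPA8 was that of ACTR3, an actin-nucleating subunit, with r of 0.986, followed by SMIM15 with 0.968 and SELENOF with 0.967. The most like HSPD1 was GTPBP4, a nucleolar GTPase of ribosome assembly, with 0.997, followed by CLNS1A with 0.994 and ANP32B with 0.992. The most like BAG3 were PLPPR2 with 0.989, WFS1, an endoplasmic reticulum membrane protein, with 0.979, and SEZ6L2 with 0.979.

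Beyond the members, 82 genes in 8 lists of chaperones and regulators were examined. In LNCaP, 6 of 73 tested were called higher and 13 lower, and in libraries labelled PC3 26 of 77 were called higher and 26 lower. Over all genes 13.8% were called higher and 17.7% lower in LNCaP, and 34.0% and 32.4% in libraries labelled PC3. The median log2 fold changes of the listed genes were -0.16 and -0.17, beside -0.02 and 0.00 over all genes. Among the listed genes called higher, HSPB8 in LNCaP and HSPB8, HSPB9, CRYAB and HSPA1L in libraries labelled PC3 were under 1 FPKM in all DMSO libraries and passed the filter only through erastin, so that their calls are not read as results.

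The list of heat shock factors held HSF1, HSF2, HSF4 and HSBP1, which encodes a factor-binding protein and not a factor. Of these, 1 of 4 was called higher and 1 lower in libraries labelled PC3, beside 34.0% and 32.4% of all genes. In LNCaP 0 of 4 were called by limma or by limma voom, 1 was called lower with the replicate block, and 1 was lower at an unadjusted p under 0.05. HSF1, the main activator of heat shock genes, had 22.7 ± 3.42 FPKM with DMSO and 17.7 ± 0.520 FPKM with erastin in LNCaP (limma, adjusted p = 0.114). Libraries labelled PC3 had 22.1 ± 8.15 and 13.3 ± 1.17 FPKM (limma, adjusted p = 0.0938). HSF2, a factor that can pair with HSF1, rose from 8.10 ± 2.83 to 25.5 ± 1.67 FPKM there (limma, adjusted p = 0.000663), and HSF4 fell from 2.60 ± 1.21 to 0.867 ± 0.196 FPKM (limma, adjusted p = 0.0242).

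Of the other HSP70 and HSP110 genes, 5 of 7 tested were called higher in libraries labelled PC3, where 34.0% of all genes were. That count includes HSPA1L, which passed the filter only through erastin and whose call is not read as a result. The count is therefore a description and is not read against the share of all genes. In LNCaP 1 of 5 was called lower, beside 17.7% of all genes. HSPA13, a microsomal HSP70, went in opposite directions, from 21.6 ± 1.203 down to 14.2 ± 0.927 FPKM in LNCaP and from 30.7 ± 11.2 up to 80.1 ± 4.87 FPKM in libraries labelled PC3. Both changes were called, with log2 fold changes of -0.58 and 1.41. HSPA2, an HSP70 abundant in testis, rose from 1.37 ± 0.322 to 6.62 ± 0.694 FPKM in libraries labelled PC3. HSPA1L, a close relative next to HSPA1A whose reads may be shared with the pair, was at 0.333 ± 0.254 FPKM with DMSO and 2.24 ± 0.129 FPKM with erastin there.

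Of the J proteins, 3 of 12 were called higher in LNCaP, beside 13.8% of all genes. In libraries labelled PC3, 6 of 13 were called higher and 4 lower, beside 34.0% and 32.4% of all genes. DNAJB4, a cytosolic relative of DNAJB1, rose in both, from 3.49 ± 0.436 to 11.1 ± 1.56 FPKM in LNCaP and from 1.43 ± 0.611 to 17.6 ± 1.07 FPKM in libraries labelled PC3. DNAJA1, a farnesylated partner of HSP70, rose from 60.1 ± 15.5 to 177 ± 9.59 FPKM in the latter, and DNAJA4 fell from 10.1 ± 0.810 to 1.76 ± 0.300 FPKM. In LNCaP, DNAJB2 rose from 12.8 ± 1.87 to 29.5 ± 3.21 FPKM and DNAJC5, a synaptic vesicle J protein, from 34.7 ± 4.07 to 56.3 ± 4.83 FPKM. DNAJB2 also rose in libraries labelled PC3, from 10.9 ± 4.14 to 30.9 ± 4.75 FPKM (limma, adjusted p = 0.00314). DNAJC5 was higher there in separate groups but was not called (limma, adjusted p = 0.0556).

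Of the exchange factors and HSP70 partners, 2 of 9 were called higher and 5 lower in libraries labelled PC3. There 34.0% of all genes were called higher and 32.4% lower. With protein-coding scaling 4 of 9 were lower, beside 4027 of 15455 genes. In LNCaP 1 of 9 was called lower, beside 17.7% of all genes. With the replicate block 2 were lower there and 1 was higher, beside 3657 and 3236 of 13683 genes. BAG2, which inhibits the ubiquitin ligase STUB1, fell in libraries labelled PC3 from 9.34 ± 2.09 to 2.27 ± 0.242 FPKM. STUB1 itself fell from 22.1 ± 11.6 to 4.86 ± 0.950 FPKM, with DMSO replicate 1 at 9.58 FPKM nearest to the erastin libraries. BAG1, an exchange factor, fell from 11.3 ± 1.53 to 5.81 ± 0.407 FPKM. In LNCaP, BAG5, another member of the BAG family, fell from 14.6 ± 0.926 to 10.5 ± 0.553 FPKM. BAG5 fell in libraries labelled PC3 as well, from 19.6 ± 2.56 to 12.9 ± 0.330 FPKM (limma, adjusted p = 0.00689).

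HSP90 and its co-chaperones had 2 of 12 higher and 1 lower in LNCaP, beside 13.8% and 17.7% of all genes. With the replicate block 2 were higher there and 5 lower, beside 3236 and 3657 of 13683 genes. In libraries labelled PC3, 6 of 12 were higher and 3 lower, beside 34.0% and 32.4% of all genes. FKBP5, an immunophilin that is also an androgen receptor target, fell in LNCaP from 19.4 ± 1.14 to 6.89 ± 0.332 FPKM. It rose in libraries labelled PC3, from 2.13 ± 0.463 to 3.62 ± 0.113 FPKM (limma, adjusted p = 0.00924). FKBP4, the immunophilin that promotes steroid receptor activity, fell in libraries labelled PC3 from 31.1 ± 3.71 to 9.61 ± 0.834 FPKM. UNC45A, a myosin chaperone, rose in LNCaP from 20.4 ± 2.56 to 32.3 ± 2.21 FPKM and fell in libraries labelled PC3 from 12.4 ± 4.29 to 6.52 ± 1.18 FPKM (limma, adjusted p = 0.0313). CHORDC1, an HSP90 co-chaperone, rose in libraries labelled PC3 from 4.59 ± 1.93 to 9.46 ± 1.05 FPKM. AHSA2P, annotated as a pseudogene and related to the HSP90 activator AHSA1, rose in LNCaP from 3.30 ± 0.281 to 5.63 ± 0.259 FPKM and fell in libraries labelled PC3 from 5.42 ± 0.619 to 2.51 ± 0.184 FPKM.

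Few small heat shock proteins passed the filter, 3 of 9 in LNCaP and 4 of 9 in libraries labelled PC3, of which 1 and 3 passed only through the erastin libraries. The levels of those genes are given as a description. HSPB8, which works with BAG3, was at 0.740 ± 0.124 FPKM in LNCaP with DMSO and 4.33 ± 0.0906 FPKM with erastin. Among libraries labelled PC3 it was at 0.0242 to 0.0250 and at 1.07 to 1.14 FPKM. CRYAB, alpha-B crystallin, was at 0.107 ± 0.0339 and 5.69 ± 0.259 FPKM there. HSPB9 was listed at 0 in all DMSO libraries labelled PC3 and was at 3.82, 1.91 and 1.25 FPKM with erastin.

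Mitochondrial chaperones and proteases were called lower as a majority in both lines, 9 of 14 in each, and 2 of 14 were called higher in libraries labelled PC3. Over all genes 17.7% and 32.4% were called lower, and 34.0% were called higher in libraries labelled PC3. HSPA9, the matrix HSP70 mortalin, fell from 71.9 ± 8.70 to 27.1 ± 2.87 FPKM in LNCaP (log2 fold change -1.38 ± 0.15, limma, adjusted p = 0.00117). Among libraries labelled PC3 it fell from 184 ± 31.3 to 80.9 ± 2.38 FPKM (log2 fold change -1.16 ± 0.14, limma, adjusted p = 0.000424). LONP1, the matrix protease, fell from 116 ± 21.8 to 36.7 ± 3.64 FPKM in LNCaP and from 90.7 ± 32.9 to 18.3 ± 1.14 FPKM in libraries labelled PC3. TRAP1, the mitochondrial HSP90, fell from 25.1 ± 8.62 to 5.86 ± 0.417 FPKM and DNAJA3, the matrix J protein, from 18.5 ± 2.88 to 4.90 ± 0.412 FPKM in the latter. Both were called lower in LNCaP too. TRAP1 fell there from 31.8 ± 3.81 to 12.2 ± 0.416 FPKM (limma, adjusted p = 0.00081). DNAJA3 fell there from 22.2 ± 1.63 to 13.9 ± 0.129 FPKM (limma, adjusted p = 0.00573). GRPEL2, an exchange factor of HSPA9, fell from 24.5 ± 2.26 to 9.03 ± 0.361 FPKM in LNCaP. It went the opposite way in libraries labelled PC3, with 48.3 ± 13.1 FPKM under DMSO and 90.5 ± 4.82 FPKM under erastin (log2 fold change 0.92, limma, adjusted p = 0.00457).

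Counts under other settings were as follows. With the replicate block 10 of 14 were lower in LNCaP, and without both LNCaP libraries of replicate 3 the number was 9. Without DMSO replicate 1 labelled PC3, 10 were lower. Scaling to the protein-coding total gave 8 in LNCaP and 7 in libraries labelled PC3. Over all genes, these settings in the same order called 3657 of 13683, 2651 of 12749, 5235 of 14273, 1932 of 13732 and 4027 of 15455 lower. Mitochondrial ribosomal RNA made 1.67% to 2.46% of reads with DMSO and 2.73% to 3.54% with erastin in LNCaP, and 0.628% to 0.944% and 1.95% to 2.18% in libraries labelled PC3, and its part in these calls was not tested.

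Relative to the matrix HSP70, HSPD1 was at 5.05 ± 0.884 times the HSPA9 level in LNCaP with DMSO and at 6.10 ± 0.768 times with erastin, in groups that overlapped. Libraries labelled PC3 had it at 1.60 ± 0.0521 and 1.28 ± 0.0510 times, in groups that did not overlap.

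Of the cytosolic chaperonin TRiC and prefoldin, 1 of 14 was called lower in LNCaP, beside 17.7% of all genes. In libraries labelled PC3, 3 of 14 were called lower and 1 higher, beside 32.4% and 34.0% of all genes. Most of these genes were thus called in neither direction in either line. CCT5 fell in both, from 54.7 ± 14.96 to 32.1 ± 6.09 FPKM in LNCaP and from 69.4 ± 3.89 to 38.5 ± 2.16 FPKM in libraries labelled PC3. CCT2 fell from 92.6 ± 11.8 to 58.6 ± 1.74 FPKM and TCP1 rose from 50.2 ± 6.81 to 75.4 ± 3.47 FPKM in the latter, although both are subunits of the same ring. With the replicate block 7 of 14 were lower in LNCaP and 1 was higher, beside 3657 and 3236 of 13683 genes.

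**Figure D4:**
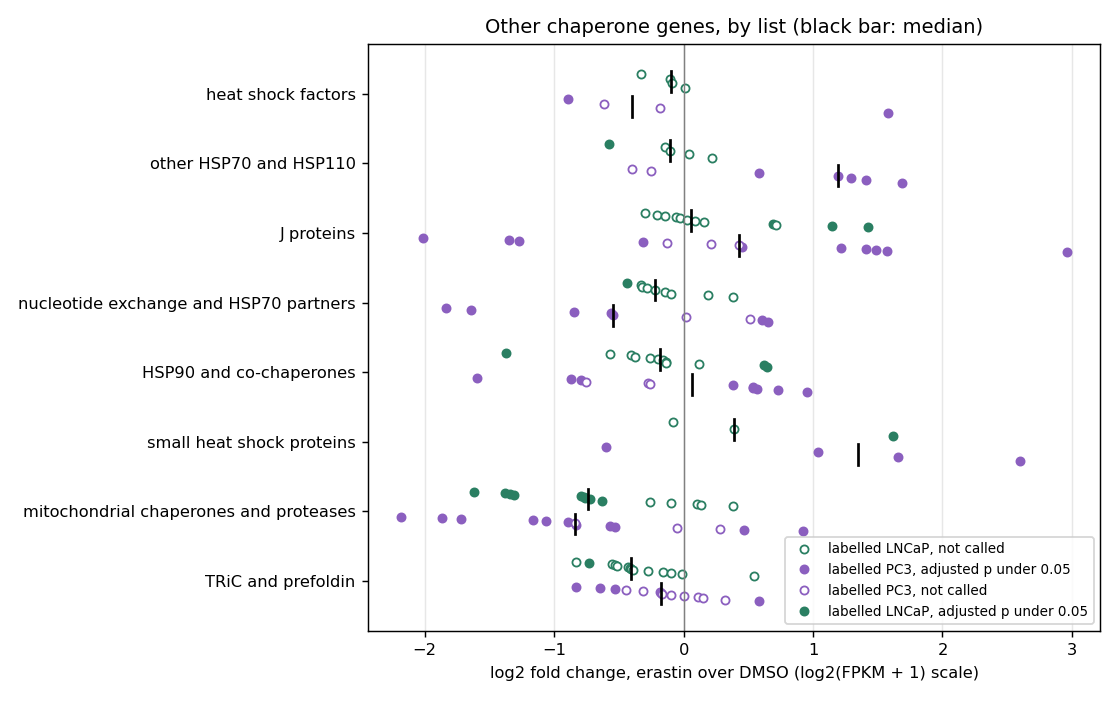
Log2 fold change of erastin over DMSO for each tested gene of the 8 chaperone lists, green for LNCaP and purple for the libraries labelled PC3. Each point is a gene, filled where it passed the adjusted threshold of 0.05, and the black bar is the median of the list. The mitochondrial list has medians of -0.74 and -0.84, whereas the other HSP70 and HSP110 genes have medians of -0.11 and 1.19. The value of 1.19 includes HSPA1L, which passed the filter there only through erastin.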

How the data were processed

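The authors deposited FPKM values per gene, in 1 table per cell line. RNA was extracted with TRIzol and made into Illumina TruSeq libraries, per the labels' protocols. HISAT2 version 2.0.5 and build hg38 are named in the submitters' processing notes. How reads were counted, on which strand and with what handling of shared reads is not given in the sources used here. FPKM times gene length gave whole reads for 100% of values above 0, within 0.1 reads. The step of 1 read matched 0.871 to 1.12 times those reads per library, so the depth behind the FPKM was not the sum of those reads. Whether the authors scaled the libraries further or counted other reads in that depth is not given in the sources used here.

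Each table was fitted alone with limma 3.58.1 in R 4.3.3 (two-sided moderated test, variance trend) on log2(FPKM + 1). Genes entered with 1 FPKM or more in 3 or more of 6 libraries, with Benjamini-Hochberg adjustment over all genes kept. The difference between lines was the interaction in 1 fit of all 12 libraries. Fold changes on this scale are understated for low genes. The LNCaP and PC3 tables use different annotations, so levels were not tested between them. Exact permutation of 3 against 3 libraries cannot go below p = 0.1 and was not used.

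The 10 members and the lists were chosen with earlier results of these data known. From each list and line, up to 3 called genes with separate groups and the largest fold change are named, with HSF1, HSP90AB1 and HSPA9 always. Likeness was Pearson's r over line-centred log2 values among protein-coding genes with a mean of at least 5 FPKM in each line. Alternatives covered pseudocount, filter, scaling, variance trend, limma voom on the recovered reads, the replicate block, both lines in 1 fit, HSPA1A and HSPA1B summed, and each library left out. The script was tested on simulated data.

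Replicate numbers come from the titles. Deviations from group means of same-numbered LNCaP libraries correlated at 0.254, 0.347 and 0.744, so the numbers pair them by the rule of over 0.1 in every pair. Exchanged pairs passed it as well, DMSO replicate 1 with erastin replicate 2 at 0.612 and DMSO replicate 2 with erastin replicate 1 at 0.195. The rule therefore cannot tell replicates 1 and 2 apart. In PC3 the correlations were -0.380, -0.0135 and -0.311, so no pairing was used there. One marker result is not reported here.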

Additional observations from a re-analysis of the deposited data

Results flagged for a closer look

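The response to erastin differed between the lines by the test of the difference itself (limma interaction, Benjamini-Hochberg adjusted p under 0.05) for 5 heat shock genes. The log2 differences, LNCaP minus PC3, were -2.51 for HSPA1A, -2.03 for HSPA1B, -1.65 for DNAJB1, -0.91 for HSP90AA1 and -0.77 for HSPH1.

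By the same test 17 of the other chaperone genes named were called, 9 with a lower value in LNCaP and 8 with a higher one. Of all 11823 genes tested for the difference, 5248 were called, 2720 lower and 2528 higher. The 17 include HSPA1L, CRYAB and HSPB8, whose calls are not read as results. Among the rest of the 17, limma adjusted p was 4.23e-06 to 0.0358. The lower log2 differences were -2.26 for GRPEL2, -2.21 for CRYAB, -1.99 for HSPA13, -1.94 for FKBP5, -1.57 for HSF2, -1.54 for DNAJB4, -1.44 for HSPA1L, -1.33 for CHORDC1 and -1.10 for TCP1. The higher ones were 1.51 for STUB1, 1.49 for AHSA2P, 1.46 for FKBP4, 1.44 for UNC45A, 1.36 for BAG2, 1.08 for DNAJA3, 0.75 for BAG1 and 0.58 for HSPB8. HSPA1L, CRYAB and HSPB8 were under 1 FPKM in all DMSO libraries of at least 1 line and passed the filter there only through erastin. Their differences on the log2(FPKM + 1) scale depend on the pseudocount and give no order of the responses. All these genes were named for their size of change in a line, so the values describe them.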

How the results depend on the processing

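The count of called members in LNCaP, 4, moved with the processing. It was 2 with no filter on low values, 7 with quantile normalization, with scaling to the protein-coding total, with the replicate block and without both LNCaP libraries of replicate 3, and 8 with limma voom or with protein-coding scaling and the replicate block together. Leaving out each library gave 1 to 5. In libraries labelled PC3 the count of 7 ranged from 6 to 9 over all settings, and the 5 differences between the lines from 4 to 6. Without DMSO replicate 1 labelled PC3, 9 members were called beside 11372 of 14273 genes. With the block, 6893 of 13683 genes were called in LNCaP in place of 4312, and those called lower went from 2418 to 3657. Genes called lower went from 1 to 7 of TRiC and prefoldin, from 1 to 5 of HSP90 and its co-chaperones and from 1 to 2 of the exchange factors. Both settings without replicate 3 and with scaling plus block were chosen after seeing the data, as were the repeats of the list counts.

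Of the single-member values, 559 kept direction and side of the threshold, 33 passed it newly, 22 no longer passed and 21 changed sign. All changes of sign were in values that were not called. HSPA8 in LNCaP was 0.33 with quantile normalization, 0.15 with protein-coding scaling, with or without the block, 0.12 with voom, 0.041 without both replicate 3 libraries and -0.10 to 0.14 with 1 library left out. HSPB1 in LNCaP was 0.14 with quantile normalization and -0.56 to 0.043 with 1 library left out. HSPA8 in libraries labelled PC3 was 0.11 with quantile normalization in place of -0.32. The HSPE1 difference was 0.036 with quantile normalization, 0.043 without both replicate 3 libraries, and -0.25 to 0.24 with 1 library left out. The BAG3 difference was -0.042 with protein-coding scaling, with or without the block, and -0.081 to 0.25 with 1 library left out. Why these values moved was not tested.

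With protein-coding scaling the median over all genes was 0.10 in LNCaP and 0.20 in libraries labelled PC3, and with voom 0.10 and 0.13. At 30 to 159 reads per library, depth limits HSPA1A in LNCaP.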
